A study of Mustela putorius furo and Mus musculus with 4 samples.

Results

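The genes described here are the 10 receptors and SMAD proteins through which bone morphogenetic protein (BMP) ligands act, chosen by name and read wherever they have a row: 10 of 17170 genes in the mouse count table and 10 of 22008 genes in the ferret count table. The type I receptors are *Bmpr1a*, *Bmpr1b* and *Acvr1*. The type II receptors are *Bmpr2*, *Acvr2a* and *Acvr2b*. *Smad1*, *Smad5* and *Smad9* encode the receptor-regulated SMADs of the BMP branch, and *Smad4* encodes the common partner. Levels were compared across cortical cell types, between a mouse library with *Smo* deleted (*Smo*-cKO, genotype *hGFAP-Cre*; *Smo* F/F) and its control, and between mouse and ferret.

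Single-cell RNA of the developing cortex was measured on a droplet platform that counts each captured transcript once through its unique molecular identifier (UMI). Mouse cells of strain CD1 came from E18 cortex, 1 library per genotype, after cells lining the ventricle had been labeled with CellTrace Yellow a day earlier and labeled cells had been sorted. In *Smo*-cKO cortex Cre driven by the *hGFAP* promoter deletes *Smo*, the transducer of sonic hedgehog signaling, in radial glial (RG) cells, while the littermate control is called wild type in the sample labels and *Smo* F/F in the methods, so it may carry the floxed allele without Cre. Ferret cells are wild type, from the bilateral cortex of 1 embryo at E39 without a described sort, and are kept as 2 sets of barcodes that could not be tied to the 2 labeled ferret samples. The mouse libraries were tied to genotypes by their numbers of barcodes, which no sample label gives. There are no replicate animals, so no test between genotypes or species was made. Every interval below is a 95% interval that covers counting error only. Levels are given as CPM, the UMIs of a gene summed over the cells of a class and scaled to a common total of UMIs. Genotype, embryo and preparation cannot be told apart in the mouse libraries, and fewer transcripts per cell cannot be told apart from fewer expressing cells within a class.

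BMPs bind a complex of type I and type II receptor kinases. The type II receptor phosphorylates the type I receptor within a stretch rich in serine and glycine. The type I receptor then phosphorylates the last serines of a receptor-regulated SMAD. This SMAD joins SMAD4 and enters the nucleus, where genes such as the *Id* family are classical targets. BMPR2 is used mainly by BMPs, whereas ACVR2A and ACVR2B also serve activins. In the cortex BMP signaling is known for roles in dorsal midline patterning and in the choice between neuronal and glial fates.

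The coding stretches on which this relay acts are alike within each family but not identical. Both are shown in GENCODE transcripts of GRCm38, 5′ to 3′ on the coding strand. The last 30 coding bases before the stop codon follow, with serine codons among the last 4 codons in capitals. All 3 receptor-regulated SMADs carry 3 of them.
*Smad1*: tcaccccacaatcctattTCATCCgtgTCT
*Smad5*: tctccgctgaaccccattTCTTCTgttTCA
*Smad9*: tccccacacaaccctatcTCTTCAgtgTCT
The next stretches are 30 coding bases at the serine and glycine repeat of each type I receptor, with every serine or glycine codon in capitals. *Bmpr1a* and *Bmpr1b* hold 7 such codons out of 10 and *Acvr1* holds 6.
*Bmpr1a*: AGCTCTGGGAGTGGATCTGGAttgccttta
*Bmpr1b*: AGCTCGGGAAGTGGATCAGGCctccctctg
*Acvr1*: acaTCAGGAAGTGGCTCCGGTcttcctttc

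The *Smad1* stretch lies in exon 7 at chr8:79339652-79339681 on the minus strand, that of *Smad5* in exon 7 at chr13:56737446-56737475 on the plus strand and that of *Smad9* in exon 6 at chr3:54797469-54797498 on the plus strand. The repeat of *Bmpr1a* lies in exon 8 at chr14:34429659-34429688, that of *Bmpr1b* in exon 6 at chr3:141862986-141863015 and that of *Acvr1* in exon 6 at chr2:58474222-58474251, all on the minus strand. Whole coding sequences were aligned, and codons set against a gap were left out of the identities. The encoded products of *Smad1* and *Smad5* were identical at 90.3% of 463 aligned codons, and those of *Bmpr1a* and *Bmpr1b* at 72.7% of 501. *Acvr1* matched *Bmpr1a* at 48.1% and *Bmpr1b* at 48.9%. Among type II receptors *Acvr2a* and *Acvr2b* matched at 67.4%. *Bmpr2* matched them at 37.6% of 510 and 39.6% of 505 aligned codons, and the rest of its 1038 codons does not enter these values.

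Cells were placed in a class by the UMIs of marker genes, and classes carry the suffix "-like" for that reason. RG-like cells numbered 2629 in control, 1773 in *Smo*-cKO, and 787 and 917 in ferret sets 1 and 2. The other classes of the pyramidal neuron (PyN) lineage were PyN intermediate progenitors (PyN-IPCs) with 2189, 1241, 652 and 1159 cells, and PyN-like cells with 1631, 1702, 1605 and 2632. Basal multipotent intermediate progenitors (bMIPCs), which express *Egfr* and *Olig2*, numbered 418, 126, 66 and 141, and in mouse held a median of 4 of their 8 markers beside 10 of 16 RG markers. Mouse RG-like cells had UMIs of a median of 13 of 16 RG markers, 2 of 14 PyN markers and 0 of 12 microglial markers, and PyN-like cells had 6 of 14 PyN markers and 2 of 16 RG markers. Mouse RG-like cells also had a median of 2 of 6 markers of *Gfap*-expressing glia, and the RG-like levels below include cells with these markers. In ferret these medians were 7 of 15 RG markers and 2 of 14 PyN markers in RG-like cells, and 7 of 14 PyN markers in PyN-like cells. Cells near the score limits were 1.34% of mouse and 9.80% of ferret RG-like cells, and 13.4% and 19.6% of PyN-like cells. No class was given to 31.2%, 25.8%, 66.2% and 53.3% of the cells. The libraries held 51657121 (control), 42057782 (*Smo*-cKO), 30548876 and 56090792 UMIs (ferret sets) after the limits on cells, and 28 barcodes occurred in both mouse libraries and 38 in both ferret sets. *Smo* had 222 UMIs (14.4 CPM) in RG-like cells of control and 5 (0.352 CPM) in those of *Smo*-cKO.

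Of the type I receptors, *Bmpr1a* and *Bmpr1b* were highest in mouse RG-like cells. *Bmpr1a* stood at 65.9 CPM (61.9 to 70.1) in control and 68.7 CPM (64.5 to 73.2) in *Smo*-cKO RG-like cells, against 31.8 and 34.5 CPM in PyN-like cells. PyN-IPC-like cells lay between them at 38.5 and 43.2 CPM, and bMIPC-like cells had 46.2 and 42.6 CPM. The level in RG-like cells was above that of the next class beyond counting error in both libraries, and that in PyN-IPC-like cells was 1.21 times (1.02 to 1.44) and 1.25 times (1.06 to 1.48) the PyN-like level. The levels of bMIPC-like and PyN-IPC-like cells could not be separated by counting error.

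Of the 9 members with at least 50 UMIs in mouse, *Bmpr1b* had the highest ratio of RG-like to PyN-like cells. It had 13.8 CPM (12 to 15.8) in control and 16.5 CPM (14.4 to 18.7) in *Smo*-cKO RG-like cells, and 6.29 and 4.45 CPM in bMIPC-like cells, the next class in both libraries. In PyN-like cells it had 13 and 10 UMIs (2.05 and 1.29 CPM), and in PyN-IPC-like cells 9 and 7 UMIs (0.830 and 0.981 CPM). The ratio of RG-like to PyN-like cells was 6.74 (3.86 to 12.9) in control and 12.8 (6.81 to 26.9) in *Smo*-cKO. Of the RG-like cells of control 7.23% (6.27 to 8.28%) had a UMI of *Bmpr1b*, at a median depth of 5048 UMIs, and of those of *Smo*-cKO 11.8% (10.4 to 13.4%), at 7430 UMIs. Microglia-like cells, used as a check for free RNA, were deeper at 7880 and 7530 UMIs, and 0 of 100 (which allows a share of up to 3%) and 1 of 180 had one. With RG-like cells thinned to 2000 UMIs, a depth that 2629 control and 1692 *Smo*-cKO cells reached, 2.70% and 3.21% were expected to keep one.

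*Acvr1*, which encodes the receptor ALK2, ran the other way. It had 10.5 and 11 CPM in RG-like cells of control and *Smo*-cKO and 18.9 and 18.1 CPM in PyN-like cells, so that RG-like cells held 0.556 (0.436 to 0.709) and 0.607 (0.480 to 0.768) of the PyN-like level. The class with the most *Acvr1* was vascular and meningeal in control (28.8 CPM from 12 UMIs) and interneuron-like in *Smo*-cKO (30.3 CPM from 31 UMIs). In neither library did the first class differ from the next beyond counting error. The next class in *Smo*-cKO was vascular and meningeal, with 6 UMIs from 33 cells.

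Of the type II receptors, *Bmpr2* differed little between RG-like and PyN-like cells, and not in 1 direction. It had 98.0 CPM in control and 74.9 CPM in *Smo*-cKO RG-like cells, with 87.6 and 89.7 CPM in PyN-like cells, so the ratio lay above 1 in control (1.12, 1.01 to 1.23) and below 1 in *Smo*-cKO (0.835, 0.758 to 0.920). The class with the most *Bmpr2* was vascular and meningeal, with 149 CPM in both libraries, from 58 cells in control and 33 in *Smo*-cKO, the latter under the 50 cells required of a comparison. PyN-IPC-like cells had less than RG-like cells in both libraries, at 66.6 and 52.3 CPM. The activin-binding receptors were lower in RG-like than in PyN-like cells. *Acvr2a* had 11.7 and 10.7 CPM in RG-like cells and 31.9 and 34.5 CPM in PyN-like cells, and *Acvr2b* had 6.54 and 5.28 CPM against 16.7 and 18.7 CPM. *Acvr2b* already stood at 15.3 and 15.7 CPM in PyN-IPC-like cells, where the interval of the ratio to PyN-like cells held 1, whereas *Acvr2a* there was 16.6 and 15.4 CPM, or 0.520 and 0.447 of the PyN-like level.

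Among receptor-regulated SMADs, *Smad1* was lower in mouse RG-like cells at 32.8 and 31.6 CPM than in PyN-like cells at 63.9 and 66.9 CPM. PyN-IPC-like cells lay between them at 50.8 and 54.2 CPM. *Smad5* had 61.0 and 54.0 CPM in RG-like cells and 58.1 and 65.7 CPM in PyN-like cells, a ratio of 1.05 (0.930 to 1.19) in control and 0.823 (0.735 to 0.922) in *Smo*-cKO. *Smad9* was close to the limit of detection: 11 UMIs in control and 9 in *Smo*-cKO RG-like cells (0.712 and 0.634 CPM), and 0 and 2 UMIs in PyN-like cells, where a count of 0 allows up to 0.472 CPM. It was left out of the counts below because it did not reach 50 UMIs. *Smad4* had 92.3 and 78.0 CPM in RG-like cells and 118 and 119 CPM in PyN-like cells.

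**Figure D1:**
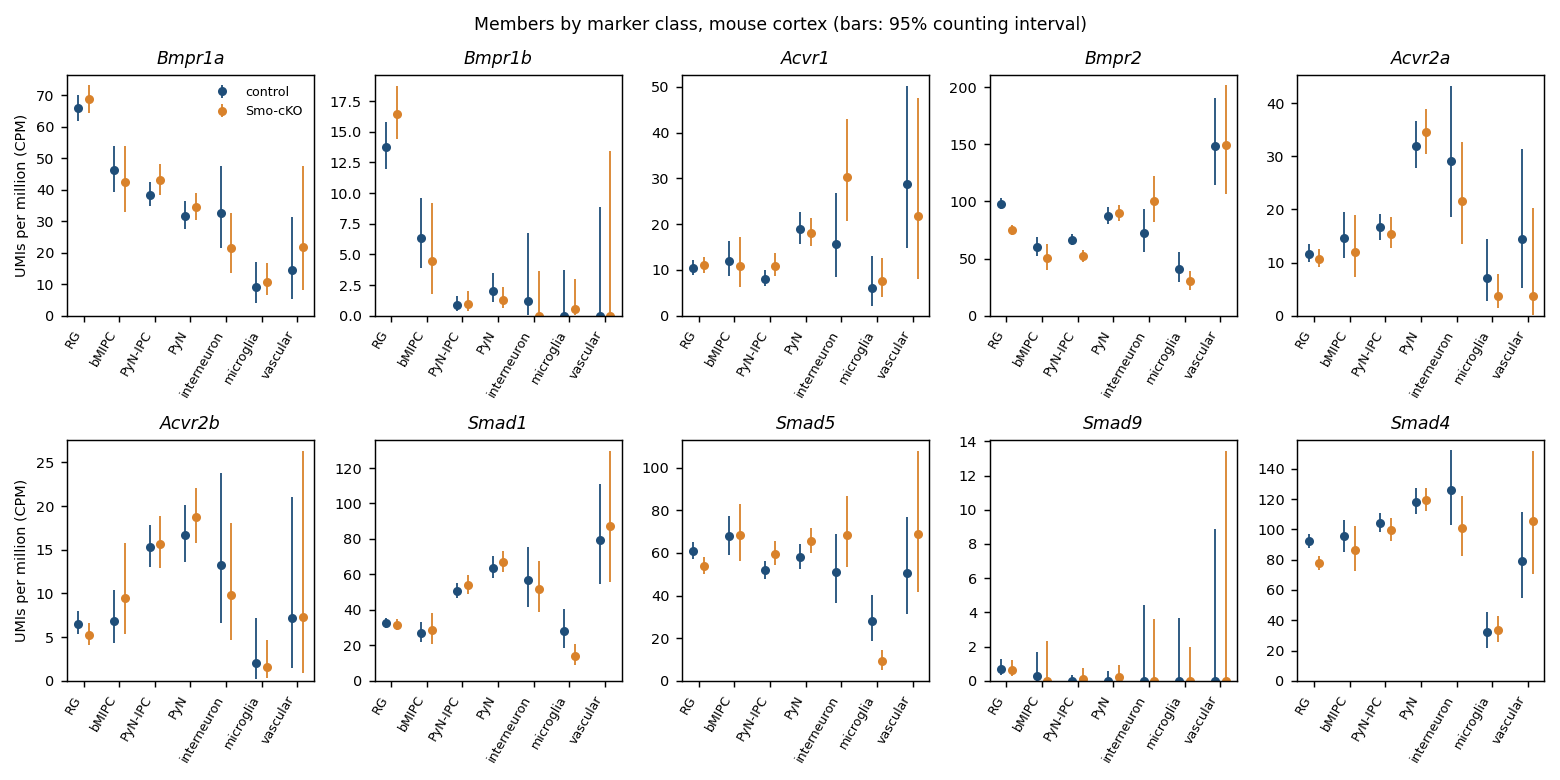
Level of each member in CPM (linear axis) in 7 marker classes of the control (blue) and *Smo*-cKO (orange) mouse library, with points for the summed level and bars for the exact Poisson 95% interval. *Bmpr1a* and *Bmpr1b* are highest in RG-like cells, while *Acvr2a*, *Acvr2b* and *Smad1* are higher in PyN-like than in RG-like cells.

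By the criterion that the interval of the ratio excludes 1 in both mouse libraries, 2 of the 9 members with at least 50 UMIs were higher in RG-like than in PyN-like cells (*Bmpr1a* and *Bmpr1b*) and 5 were lower (*Acvr1*, *Acvr2a*, *Acvr2b*, *Smad1* and *Smad4*). Of all 12233 genes with as many UMIs, 33.5% were higher and 30.4% lower. With a ratio of at least 1.5-fold in both libraries the members numbered 2 higher and 4 lower, since *Smad4* dropped out, beside 26.5% and 20.6% of all genes. The members were thus spread over both directions, as all genes were, and the median log2 ratio over all genes was 0.04 in control and 0.00 in *Smo*-cKO.

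In ferret *BMPR1A* and *BMPR1B* were higher in RG-like than in PyN-like cells, as in mouse. *BMPR1A* had 52.6 CPM (44.2 to 62.1) in RG-like cells of set 1 and 80.3 CPM (71.9 to 89.5) in those of set 2, against 25.8 and 37.9 CPM in PyN-like cells. *BMPR1B* had 35.2 and 42.7 CPM against 5.85 and 4.10 CPM, a ratio of 6.01 (3.98 to 9.28) and 10.4 (7.62 to 14.4). For bMIPC-like cells, 66 and 141 in number, the interval of the ratio to RG-like cells held 1 for both receptors in each set. A UMI of *BMPR1B* was found in 8.89% and 12.9% of RG-like cells, against 2 of 91 and 0 of 72 microglia-like cells. *BMPR1A* had 33.0 and 28.3 CPM in microglia-like cells, and the ratio of RG-like to microglia-like cells was 1.59 (0.841 to 3.40) and 2.84 (1.48 to 6.27).

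The ferret SMADs had ratios of RG-like to PyN-like cells above 1. *SMAD1* had 43.5 and 42.5 CPM in RG-like cells and 31.7 and 37.0 CPM in PyN-like cells, with ratios of 1.37 (1.08 to 1.75) and 1.15 (0.960 to 1.37). *SMAD4* had 122 and 109 CPM against 88.7 and 76.7 CPM, a ratio of 1.37 (1.19 to 1.58) and 1.42 (1.27 to 1.59). *SMAD5* had 158 and 135 CPM against 85.3 and 71.7 CPM, and PyN-IPC-like cells had 158 and 149 CPM, with intervals of the ratio to RG-like cells that held 1. *SMAD9*, which mouse cells barely held, had 43 and 57 UMIs (16.3 and 13.8 CPM) in RG-like cells and 4.21 and 4.41 CPM in PyN-like cells, with ratios of 3.87 (2.28 to 6.72) and 3.14 (2.13 to 4.61). Interneuron-like cells had as much, at 15.8 and 15.7 CPM from 6 and 51 UMIs, and 91 and 72 microglia-like cells had 0 UMIs.

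Of the ferret type II receptors, *BMPR2* had 161 and 205 CPM in RG-like cells and 224 and 253 CPM in PyN-like cells, and *ACVR2A* had 67.0 and 64.8 CPM against 90.6 and 104 CPM. *ACVR2B* (22.7 and 22.8 CPM against 18.7 and 21.9 CPM) and *ACVR1* (23.8 and 18.9 CPM against 21.2 and 22.5 CPM) had intervals that held 1 in each set. *ACVR1* was highest in vascular and meningeal cells at 143 and 106 CPM, 6.01 (4.29 to 8.45) and 5.59 (3.95 to 7.90) times the RG-like level, with 47.4 and 52.0 CPM in interneuron-like cells. *BMPR2* and *SMAD1* were also highest there in both sets, *BMPR2* at 402 and 452 CPM and *SMAD1* at 138 and 113 CPM.

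**Figure D2:**
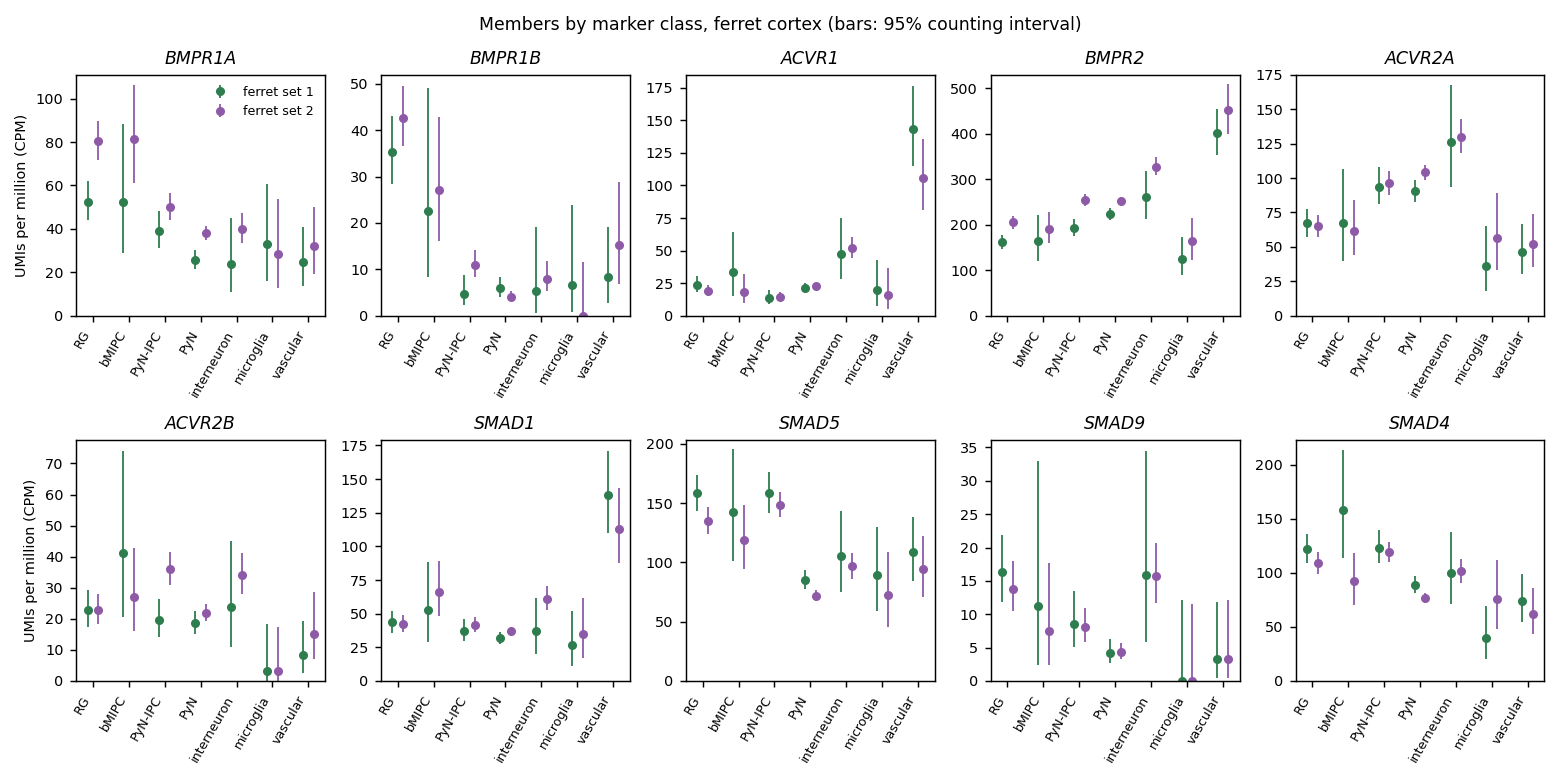
Level of each member in CPM (linear axis) in 7 marker classes of ferret sets 1 (green) and 2 (purple), with bars for the exact Poisson 95% interval. *BMPR1A*, *BMPR1B*, *SMAD5* and *SMAD9* are higher in RG-like than in PyN-like cells of both sets, and *ACVR1*, *BMPR2* and *SMAD1* are highest in vascular and meningeal cells.

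With the ferret sets together, 6 of 10 members were higher in RG-like than in PyN-like cells (*BMPR1A*, *BMPR1B*, *SMAD1*, *SMAD4*, *SMAD5* and *SMAD9*) and 2 were lower (*BMPR2* and *ACVR2A*), beside 36.1% and 31.4% of 13077 genes. With the interval excluding 1 in each set alone, 5 members were higher, without *SMAD1*, and 2 lower, beside 25.4% and 19.1% of genes. A ratio of 1.5-fold in each set was reached by 4 members upward and 0 downward, beside 20.5% and 15.6% of genes. *Smad1*, *Smad4* and *Acvr2b* had ratios under 1 in both mouse libraries and over 1 in both ferret sets. The interval of *ACVR2B* held 1 in each ferret set, however, and that of *SMAD1* held 1 in set 2. The species differ in stage, sort, annotation and depth as well, and these cannot be told apart from species here.

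**Figure D3:**
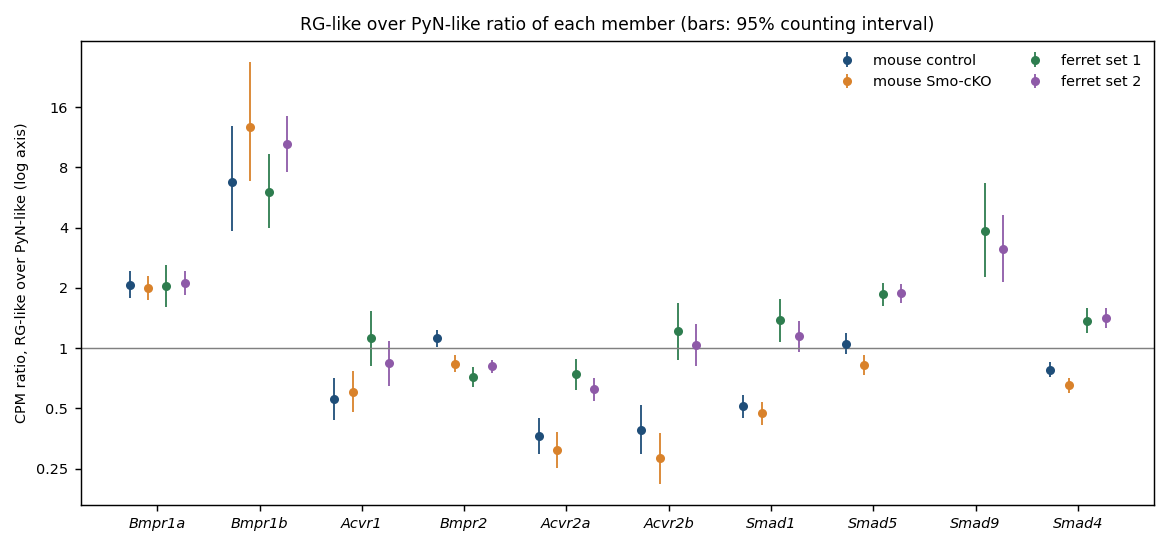
Ratio of CPM in RG-like to PyN-like cells (log axis, line at 1) for each member in the control and *Smo*-cKO mouse libraries and the ferret sets, with exact conditional binomial 95% intervals and only where both classes together held at least 50 UMIs. *Bmpr1a* and *Bmpr1b* lie above 1 in all 4, *Acvr2a* lies below 1 in all 4, and *Smad1* and *Smad4* lie on opposite sides of 1 in mouse and ferret.

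The balance of the type I receptors *Bmpr1a* and *Bmpr1b* differed between classes. *Bmpr1b* made up 17.3% (15.2 to 19.5%) of the UMIs of *Bmpr1a* and *Bmpr1b* in control RG-like cells and 19.3% (17.1 to 21.7%) in *Smo*-cKO, against 6.05% and 3.61% in PyN-like and 2.11% and 2.22% in PyN-IPC-like cells. In bMIPC-like cells it made up 12% (7.58 to 17.8%) and 9.46% (3.89 to 18.5%), with intervals that overlapped those of RG-like cells. In ferret the share was 40.1% (33.7 to 46.7%) and 34.7% (30.6 to 39.0%) in RG-like cells and 18.5% and 9.76% in PyN-like cells. Ferret bMIPC-like cells had 30% (11.9 to 54.3%) and 25% (15.5 to 36.6%). Ferret vascular and meningeal cells had 25% (8.66 to 49.1%) and 32.1% (15.9 to 52.4%). The intervals of both classes overlapped those of ferret RG-like cells. Expressed as a ratio, 4.78 UMIs of *Bmpr1a* were counted per UMI of *Bmpr1b* in control RG-like cells and 15.5 in control PyN-like cells. The RG-like ratio was 0.308 (0.158 to 0.552) of the PyN-like ratio in control, 0.156 (0.0729 to 0.298) in *Smo*-cKO, and 0.339 and 0.203 in ferret sets 1 and 2. Capture differs between genes, so the share itself is no measure of protein, and only its change from class to class within a library was compared.

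**Figure D4:**
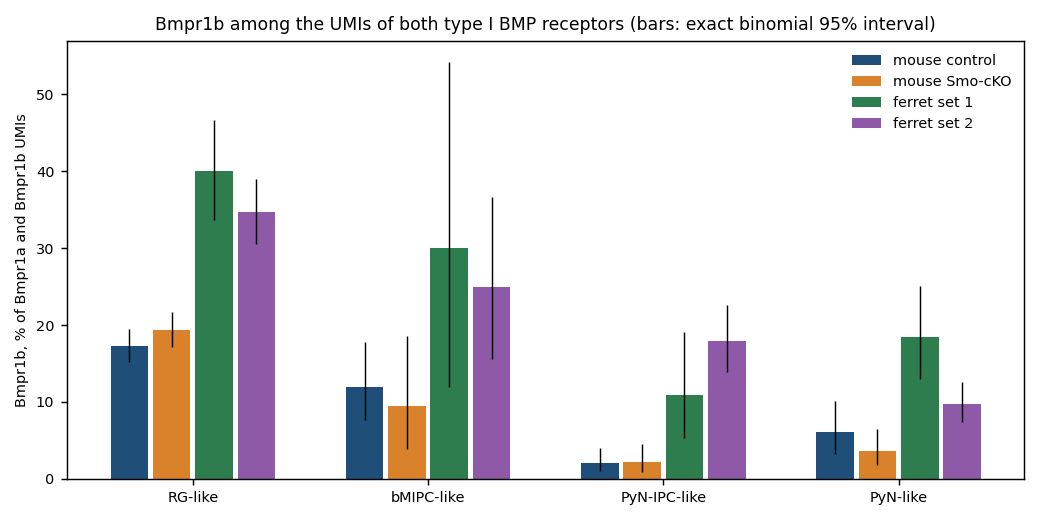
Share of *Bmpr1b* among UMIs of *Bmpr1a* and *Bmpr1b* (percent, axis from 0) in 4 marker classes of each mouse library and ferret set, with exact binomial 95% intervals. Of these 4 classes RG-like cells hold the largest share in every library and set, 17.3% and 19.3% in mouse and 40.1% and 34.7% in ferret. Their intervals overlap those of bMIPC-like cells in each.

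Few single cells showed a complete receptor set at this depth. At least 1 UMI of a type I receptor, a type II receptor and a receptor-regulated SMAD was found together in 9.51% (8.41 to 10.7%) of the RG-like cells of control, in 14.7% (13 to 16.4%) of those of *Smo*-cKO, and in 3.13% and 4.99% of PyN-like cells. Microglia-like cells reached 7% and 3.33%. In ferret RG-like cells the share was 9.40% and 18.1%, against 4.24% and 10.1% of PyN-like cells. At 2000 UMIs per cell the share expected of RG-like cells was 0.713% and 0.481% in mouse and 2.83% and 3.09% in ferret, from 2629, 1692, 658 and 855 cells that reached this depth, and those in mouse PyN-like cells were 0.393% and 0.567%, so the order of the mouse libraries and that of the classes in *Smo*-cKO did not hold at equal depth. *Bmpr1a* and *Bmpr1b* were found in the same cell in 80 control and 99 *Smo*-cKO RG-like cells (3.04% and 5.58%), and in 2 and 1 PyN-like cells.

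Cycling cells, those with UMIs of at least 3 cycling markers, made up 42.0% of control and 29.8% of *Smo*-cKO RG-like cells and 36.0% and 34.9% of those of ferret sets 1 and 2. *Bmpr1a* was 1.21 times (1.07 to 1.37) as high in cycling as in other RG-like cells of control and 1.09 times (0.955 to 1.24) in *Smo*-cKO. *Smad4* was 1.16 times (1.04 to 1.29) as high in control and 0.970 times (0.855 to 1.10) in *Smo*-cKO. *Bmpr1b* was 0.707 times (0.524 to 0.944) as high in *Smo*-cKO and 0.929 times (0.703 to 1.23) in control. In ferret *ACVR2A* was lower in cycling RG-like cells of set 2 (0.651, 0.499 to 0.845), while in set 1 the interval held 1 (0.842, 0.614 to 1.15). *BMPR1A* was higher in those of set 1 (1.51, 1.07 to 2.14) and not separable in set 2 (1.02, 0.815 to 1.27). No member had an interval that excluded 1 in the same direction in both mouse libraries or in both ferret sets.

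Between the mouse genotypes, none of the 9 members with at least 50 UMIs in RG-like cells differed by 1.5-fold or more, with 0 higher and 0 lower, beside 6.32% and 6.02% of 11669 genes. No count test was run, because each genotype is 1 library. *Bmpr2* had 1513 UMIs (98.0 CPM, 93.1 to 103) in control and 1063 UMIs (74.9 CPM, 70.4 to 79.5) in *Smo*-cKO, a ratio of 0.764 (0.706 to 0.827). *Smad4* had a ratio of 0.844 (0.780 to 0.914) and *Smad5* one of 0.886 (0.804 to 0.975). For *Bmpr1a* (1.04, 0.954 to 1.14), *Bmpr1b* (1.19, 0.988 to 1.45), *Acvr1* (1.05), *Acvr2a* (0.919), *Acvr2b* (0.808) and *Smad1* (0.965) the interval held 1. The median log2 ratio of the 9 members was -0.12, against -0.03 over all genes.

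RG-like cells of the libraries also differed in depth (medians of 5048 and 7430 UMIs) and in the cycling share given above. Cells with a UMI of *Gfap*, *Tagln*, *Acta2* or *S100a11* made up 47.2% of them in control and 73.0% in *Smo*-cKO, shares not taken at equal depth. Without those cells the ratio of *Smad5* was 1.02 and that of *Smad4* 0.918, while over all 10 alternatives that of *Bmpr2* stayed between 0.752 and 0.800 and that of *Acvr2b* between 0.719 and 0.862. Without cycling cells the interval held 1 for *Smad4* (0.921, 0.828 to 1.02) and *Smad5* (0.892, 0.785 to 1.01), whereas for *Bmpr1b* it lay above 1 (1.29, 1.01 to 1.65) and for *Bmpr2* below 1 (0.759, 0.684 to 0.842). In cycling cells *Smad4* had a ratio of 0.770 (0.680 to 0.871). The part of depth in these ratios was not tested.

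In PyN-IPC-like cells 0 of 8 members were past 1.5-fold in either direction, beside 6.23% higher and 5.29% lower of 10460 genes, and *Bmpr2* had a ratio below 1 (0.785, 0.691 to 0.890), as in RG-like cells, and *Smad5* one above 1 (1.15, 1.01 to 1.31), on the other side from RG-like cells. In PyN-like cells, where *Bmpr2* stood at 1.02 (0.914 to 1.15), 0 of 8 were past it, beside 3.2% and 2.49% of 9857 genes. The median log2 ratio of the members was 0.06 in PyN-IPC-like and 0.09 in PyN-like cells, against 0.05 and 0.03 over all genes.

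**Figure D5:**
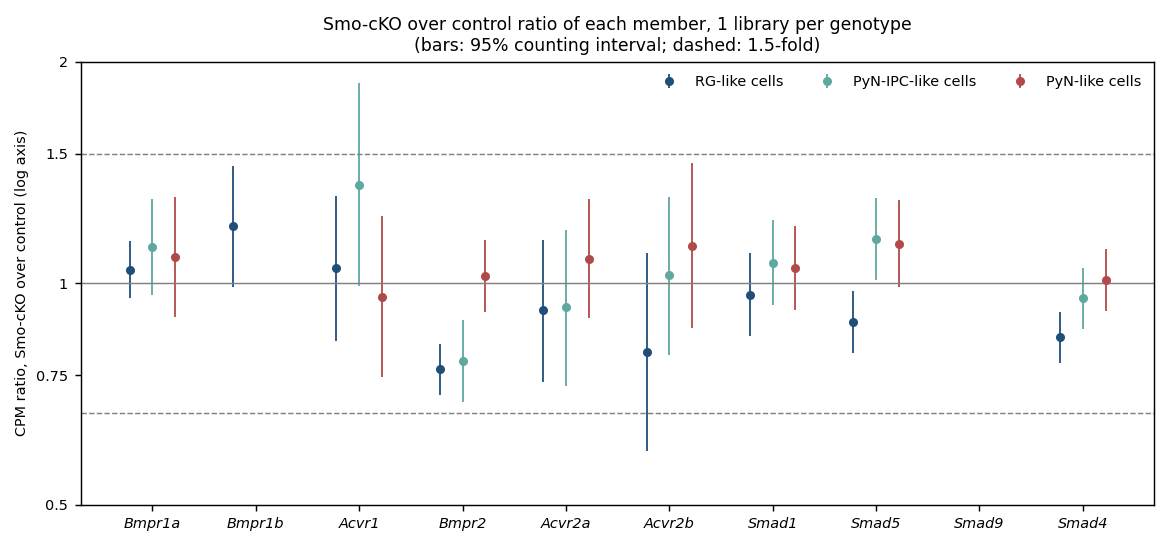
Ratio of CPM in *Smo*-cKO to control (log axis; solid line at 1, dashed lines at 1.5-fold either way) for each member in RG-like, PyN-IPC-like and PyN-like cells, with exact conditional binomial 95% intervals and only where the libraries together held at least 50 UMIs. No point passes 1.5-fold, and *Bmpr2* lies at 0.764 in RG-like, 0.785 in PyN-IPC-like and 1.02 in PyN-like cells.

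Among other genes of the pathway some were past 1.5-fold between the libraries. Of 71 listed genes, 69 had a row and 50 had at least 50 UMIs in RG-like cells, and 7 of them were past 1.5-fold higher and 3 lower in *Smo*-cKO, beside 6.32% and 6.02% of all 11669 genes, with a median log2 ratio of -0.01. Some genes stand on more than 1 list. Among 6 measured ligands, *Bmp7* had 8.81 CPM in control and 19.7 CPM in *Smo*-cKO (2.24-fold, 1.82 to 2.77), and *Gdf11*, a relative of myostatin that signals through ACVR2B, had 4.08 and 7.04 CPM. Among 10 antagonists and extracellular binding proteins, *Nbl1*, a secreted BMP antagonist, had 6.60 and 32.04 CPM (4.85-fold, 3.91 to 6.08), and the fibrillins *Fbn1* and *Fbn2* had 7.19 and 11.6 CPM and 1.23 and 3.38 CPM. *Chrdl1*, an antagonist of the chordin family, had 3.30 and 1.13 CPM, and the activin antagonist *Fst* had 7.06 and 2.89 CPM.

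Of 5 measured co-receptors and other receptors of the superfamily, *Rgmb*, a BMP co-receptor, was lower at 10.4 and 6.76 CPM. None of 4 other SMADs and none of 17 modulators of SMADs passed 1.5-fold in either direction. Of 11 response genes, *Id3* had 138 and 536 CPM (3.88-fold, 3.69 to 4.07) and *Hopx* 575 and 1009 CPM (1.76-fold, 1.71 to 1.80), whereas *Id1* had 116 and 124 CPM and *Id4* 173 and 166 CPM. *Id3* was also higher in *Smo*-cKO in PyN-IPC-like (4.79-fold, 3.19 to 7.38), PyN-like (3.07-fold, 1.71 to 5.84) and interneuron-like cells (1.74-fold, 1.18 to 2.62). In microglia-like cells it had 5 and 87 UMIs (9.40-fold, 3.88 to 29.7). For bMIPC-like (1.01-fold, 0.802 to 1.27) and vascular and meningeal cells (0.899-fold, 0.714 to 1.13) the interval held 1, the latter from 33 cells in *Smo*-cKO. The part of free RNA in the *Id3* ratios was not tested. The study itself examined *Bmp7*, *Id3* and *Hopx*, so the lists that hold them are not independent evidence of direction.

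Set against PyN-like cells, 16 of the 50 genes were over 4 times as high in RG-like cells of both libraries and 0 were under 1/4, beside 11.9% and 3.12% of all 11669 genes with as many UMIs in RG-like cells. The minimum was set on RG-like cells alone, so genes low there could not enter. The genes over 4 times as high included the ligands *Tgfb2* (136 and 124 CPM in RG-like, 10.7 and 8.01 CPM in PyN-like cells) and *Tgfb3*, the antagonists *Nog* (29.3 and 36.8 CPM against 0.787 and 0.905 CPM) and *Fstl1* (202 and 217 CPM against 16.2 and 18.5 CPM), the co-receptor *Rgma* (77.4 and 74.1 CPM against 10.9 and 12.3 CPM), *Smad3*, *Id1*, *Id3*, *Id4* and *Hopx*. *Hes1* and *Hes5* were among them but also served as RG markers. In both mouse libraries 1 of the 9 measured members, *Bmpr1b*, was over 4 times as high in RG-like as in PyN-like cells. The share of all genes was 11.9%, and the interval of *Bmpr1b* in control, given above, reached below 4. In ferret *ID1* had 265 and 226 CPM in RG-like and 3.48 and 1.78 CPM in PyN-like cells, whereas *ID3* had 10 and 8 UMIs in all RG-like cells of sets 1 and 2. Not all genes over 4 times as high in mouse were higher in ferret RG-like cells. *NBL1* had 15.1 and 17.2 CPM in RG-like and 26.0 and 24.8 CPM in PyN-like cells, and *TGFB2* 1.14 and 3.40 against 2.93 and 4.72 CPM. *HOPX* had 748 and 613 against 14.5 and 4.72 CPM, and *FSTL1* 39.0 and 47.1 against 4.39 and 2.55 CPM.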

How the data were processed

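The files hold UMI counts as the authors deposited them, made with Cell Ranger and not normalized. The submitters' processing notes name mm10; the ferret build is not given in the sources used here. The study's limits of 750 to 5000 genes and under 10% mitochondrial transcripts were applied again. The deposited mouse barcodes number 10524 and 7596 by suffix, which equal the cell numbers stated for control and *Smo*-cKO; the suffixes were assigned to genotypes on this ground alone, and 10498 and 7209 cells passed the limits.

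Each cell was scored for 8 marker classes by the mean z-score (capped at 4) of its log-normalized marker counts. It took the class with the highest score if at least 3 markers were detected, the score was at least 0.25 and it led the next by 0.1. Classes under 50 cells in a library were not compared, except vascular and meningeal cells, of which *Smo*-cKO held 33. A name rests on these markers, so a difference from the study may come from rebuilt classes. No doublet caller was run. Leiden clusters (scanpy 1.11.5), from which the members were left out, gave alternative classes. UMIs were summed per library and class. CPM had exact Poisson intervals, shares Clopper-Pearson intervals, and ratios exact conditional binomial intervals (scipy 1.17.1, numpy 2.4.6, pandas 2.3.3 under python 3.11.15), all at 95%, covering counting error only. A count of 0 was given a limit of 3 counts. Thinned shares are exact expectations at 2000 UMIs. The ratio calculation was tested on simulated data. With 1 library per genotype no test was made.

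All 10 members are named. Of other pathway genes, those with at least 50 UMIs and past 1.5-fold between genotypes, or over 4 times higher in RG-like cells, qualified. The members, lists and markers were chosen with earlier results of these data known. Sequences and coordinates come from GENCODE vM21 (GRCm38, the same assembly as mm10).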

Additional observations from a re-analysis of the deposited data

Results flagged for a closer look

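*Smad1*, *Smad4* and *Acvr2b* are singled out because their ratio of RG-like to PyN-like cells lay on one side of 1 in both mouse libraries and on the other in both ferret sets. The difference between the species was not tested. For *Smad1* the ratio was 0.513 in control and 0.472 in *Smo*-cKO, and 1.37 and 1.15 in ferret sets 1 and 2, where the interval of set 2 held 1. For *Smad4* it was 0.780 and 0.653 in the mouse libraries, and 1.37 and 1.42 in the ferret sets. For *Acvr2b* it was 0.392 and 0.282 in the mouse libraries, and 1.22 and 1.04 in the ferret sets, where both intervals held 1. The ferret sets come from 1 embryo and the mouse libraries from different genotypes.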

How the results depend on the processing

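In mouse, with the interval as the rule, 2 members were higher and 5 lower in RG-like than in PyN-like cells under every alternative that recounted them. With 1.5-fold in place of the interval, a rule chosen after seeing the data, 4 were lower. These members were not recounted without RG-like cells that held *Gfap*, *Tagln*, *Acta2* or *S100a11*, which were 47.2% of control and 73.0% of *Smo*-cKO RG-like cells. In ferret 6 were higher and 2 lower, with 5 higher in set 2 alone. The ferret members were not recounted with classes set by clusters or without cycling cells. Between genotypes 0 members passed 1.5-fold in RG-like cells under the alternatives run. A minimum of 1 marker more moved 8 mouse and 53 ferret cells into or out of the RG-like and PyN-like classes, and 1 fewer moved 0. With RG-like cells that held *Gfap*, *Tagln*, *Acta2* or *S100a11* left out, the *Smo*-cKO to control ratio of *Smad5* was 1.02, on the other side of 1, and the cause was not tested. Without those cells the ratio of *Smad4* was 0.918, and without cycling cells 0.921 with an interval that held 1. The quotient of *Bmpr1a* to *Bmpr1b* ratios in ferret set 2 was 0.317 with classes set by clusters, and the cause was not tested. Thinned to 2000 UMIs, the share of RG-like cells with a full receptor set was 0.713% in control, 0.481% in *Smo*-cKO, and 2.83% and 3.09% in ferret sets 1 and 2, since a thinner cell holds fewer UMIs. No paired analysis was possible because each genotype is 1 library. *Smad9* had too few UMIs in mouse for a comparison, and depth limits every share of cells.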

Other observations

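Cajal-Retzius-like cells, too few for the comparisons, had the highest *Smad1* level (CPM) of any mouse class: 58 UMIs in 19 control cells (355 CPM, 270 to 460) and 4 UMIs in 4 *Smo*-cKO cells (105 CPM, 28.5 to 268). *Smad5* had 18.4 CPM and *Smad9* 0 UMIs there in control. In microglia-like cells *Smad1* had 28 UMIs (28 CPM) in control and 26 UMIs (14 CPM) in *Smo*-cKO, a ratio of 0.501 (0.282 to 0.887).

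RG-like cells with a *Bmp7* UMI were set beside those without. *Bmpr1a* was 1.04 times (0.781 to 1.37) as high in them in control and 1.16 times (0.982 to 1.36) in *Smo*-cKO. *Bmpr1b* was 1.79 times (1.06 to 2.87, from 19 UMIs) as high in control and 1.15 times (0.810 to 1.59) in *Smo*-cKO, and *Smad4* was 1.12 times (0.882 to 1.39) and 0.844 times (0.711 to 0.997) as high.

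Over 13 points (mouse classes of at least 50 cells in each library), the level of each member was set beside that of 9911 genes as log2(CPM + 10). The genes most like *Bmpr1a* were *Sfrp1*, *Slitrk2* and *Scrn1* (Pearson r 0.986, 0.985 and 0.981), and those most like *Bmpr1b* were *Slc4a4*, *Pls1* and *B3gat2* (0.983, 0.982 and 0.981). For *Acvr2b* they were *Frrs1l*, *Fam109a* and *Atf7ip* (0.971, 0.971 and 0.970), and for *Smad1* *Strn3*, *Jmy* and *Cxx1b* (0.961, 0.952 and 0.949). Between members, *Acvr2a* and *Acvr2b* had r = 0.874 and *Bmpr1a* and *Bmpr1b* r = 0.780. The points share libraries, and a handful of classes set each value, so these are descriptions only.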
